A study of Mus musculus with 24 samples.

Results

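The 9 transcription factors followed here in cultured white and brown preadipocytes pattern the embryo and are known from work on the identity of fat depots: Zic1, Lhx8, Tbx15, Tbx18, Tbx5, Tcf21, En1, Pax3 and Meox2. They were chosen by name, outside the Hox clusters, and each symbol matched 1 Ensembl gene identifier, which made 9 of the 37310 genes of the expression tables. Of the 9, 8 reached the level needed for a test across genes, among 14095 genes that did, and Tcf21 did not.

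The cells were stromal vascular cells, the mixed non-adipocyte fraction of fat, of 2 mouse depots, the inguinal white fat (WAT, white adipose tissue) and the brown fat between the shoulder blades (BAT, brown adipose tissue), in C57BL/6 mice aged 6 weeks. All cultures were grown to near confluence, kept for 4 days in induction medium with insulin, dexamethasone and 3-isobutyl-methylxanthine, and then for another 4 days in medium with insulin and T3. Either epigallocatechin gallate (EGCG), the main catechin of green tea, or DMSO was added, at a dose that the labels do not give, and RNA was taken on day 4 or day 8. The 8 groups were therefore WAT day 4 control, WAT day 4 EGCG, WAT day 8 control, WAT day 8 EGCG and the same 4 in BAT, with 3 libraries each and 24 in all. The labels name no transgene or deletion in any group. The labels do not say whether replicates were separate isolations, so p-values here measure the spread between these libraries, which may be technical, and in bulk RNA of a mixed culture fewer cells of a type and less RNA per cell cannot be told apart.

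Values were FPKM, reads scaled for gene length and for the total of reads on genes, in 1 table for replicates 1 and 2 and another for replicate 3. Depth, as reads on genes, ran from 39452696 to 52893848 a library in the first table and from 16392420 to 41675648 in the second. Differences are given on the scale of log2(FPKM + 1), which understates the change of genes near 0, with their standard error (SE) from limma over replicates 1 and 2 and a p-value adjusted by Benjamini-Hochberg over all 14095 genes tested. A gene is called higher or lower where that adjusted p is under 0.05. Replicate 3 was used to see whether a difference had the same direction. One library stood apart: in WAT day 8 EGCG replicate 3, 61.0% of the reads fell on 5 genes, against 3.64% to 10.5% in the other 23 libraries, and its median gene was at 0.373 times the mean of replicates 1 and 2 of its group. The same ratio was 0.955 to 0.972 in the other 7 groups, so levels of that library are printed as deposited and read as low overall.

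The depot labels were compared with marker genes. Adipoq, the adipocyte hormone, was 121 ± 15.1 FPKM (SD, n = 2, as for all means here) in WAT and 309 ± 33.9 in BAT day 4 controls. Of the 8 mature adipocyte markers, Lpl alone had the lower mean in BAT day 4 controls, 1155 ± 81.8 FPKM against 1605 ± 43.8 in WAT. Ucp1, the uncoupling protein of brown adipocytes, reached 6.56 ± 0.579 FPKM in BAT day 8 controls and was 0 in WAT day 8 controls. Of the 9 brown adipocyte markers, Elovl3 alone was not higher in BAT day 8 controls, at 1.737 ± 0.76 FPKM against 1.775 ± 0.393 in WAT. On day 4 the controls had Cox8b alone lower in BAT, at 3.87 ± 0.52 FPKM against 4.99 ± 0.507 in WAT. With EGCG on day 8 Ucp1 was also 0 in BAT cells, where Adipoq was 37.4 ± 1.83 FPKM. The epithelial genes Epcam and Krt14 were at 0 in the BAT controls, while the summed level of the 6 epithelial markers was 17.9 to 99.5 FPKM in the WAT groups.

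Depot identity in fat is thought to be laid down in the embryo, and adipocyte precursors keep a record of their position in the expression of such factors after they are placed in culture. Zic1 (a zinc finger protein) and Lhx8 (a LIM homeodomain protein) are used as markers of classical brown fat, Tbx15 and Tbx18 (T-box proteins) are known from subcutaneous precursors, and Tcf21 (a basic helix-loop-helix protein) is known from white precursors, mainly visceral ones. En1 and Pax3 mark the dermomyotome of the embryo, from which interscapular brown fat arises together with dermis and muscle, Meox2 is a homeodomain protein of the somites, and Tbx5 is a T-box factor of heart and forelimb.

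All 9 genes are protein-coding in the GENCODE vM1 annotation of mouse genome build NCBIM37 (mm9). Zic1 (ENSMUSG00000032368.8) lies on chromosome 9 from 91252896 to 91260648 on the minus strand, and 60 of its 5693 exonic bases overlap Zic4 on the other strand, so reads there cannot be told apart as the strand setting of the counting is not given in the sources used here. Its longest transcript has 3 exons. No other member shares exonic bases with another gene. Pax3 (ENSMUSG00000004872.9) lies on chromosome 1 from 78097842 to 78193709 and En1 (ENSMUSG00000058665.7) on the same chromosome from 122498995 to 122505873. Lhx8 (ENSMUSG00000028201.5) lies on chromosome 3 from 153969260 to 153993615 and Tbx15 (ENSMUSG00000027868.5) on chromosome 3 from 99044304 to 99158182; the nearest coding gene, Wars2, is 1195 bases away. Tbx18 (ENSMUSG00000032419.7) lies on chromosome 9 from 87597635 to 87626095, Tbx5 (ENSMUSG00000018263.8) on chromosome 5 from 120284672 to 120335227, Tcf21 (ENSMUSG00000045680.7) on chromosome 10 from 22537085 to 22539934 and Meox2 (ENSMUSG00000036144.4) on chromosome 12 from 37835127 to 37908372.

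Promoter sequence was at hand for 6 of the 9 members, from RefSeq (build GRCm38.p6), and 4 are shown. Zic1, En1 and Tbx18 are shown because they rose together with EGCG in BAT cells on day 8. Lhx8 is shown because it fell with EGCG on day 4 in both depots. In BAT on day 8 Lhx8 was also called higher, by a smaller 0.22 ± 0.0563, a call lost after median-ratio scaling. Meox2 also fell with EGCG on day 4 in both depots and was not called in BAT on day 8. Meox2 and Tcf21 are not printed and are given by their counts, so the 4 sequences shown are a choice. Each was placed on NCBIM37 by an exact match, is written 5′ to 3′ on the strand of its gene, ends at the base before the annotated start of the gene and is cut to bases outside any annotated exon. Capitals mark CG dinucleotides, the sites of DNA methylation in mammals.
Zic1, chr9:91260649-91260856, minus strand, 208 bases: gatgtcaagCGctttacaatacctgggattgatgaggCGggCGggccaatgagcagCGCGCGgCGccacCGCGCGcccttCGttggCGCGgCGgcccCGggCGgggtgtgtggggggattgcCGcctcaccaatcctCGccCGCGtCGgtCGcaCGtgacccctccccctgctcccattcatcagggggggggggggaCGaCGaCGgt
En1, chr1:122498814-122498994, plus strand, 181 bases: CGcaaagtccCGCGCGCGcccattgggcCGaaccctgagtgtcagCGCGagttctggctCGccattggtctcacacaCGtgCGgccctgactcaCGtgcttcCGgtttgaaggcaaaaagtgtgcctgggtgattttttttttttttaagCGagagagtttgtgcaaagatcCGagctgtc
Tbx18, chr9:87626096-87626345, minus strand, 250 bases: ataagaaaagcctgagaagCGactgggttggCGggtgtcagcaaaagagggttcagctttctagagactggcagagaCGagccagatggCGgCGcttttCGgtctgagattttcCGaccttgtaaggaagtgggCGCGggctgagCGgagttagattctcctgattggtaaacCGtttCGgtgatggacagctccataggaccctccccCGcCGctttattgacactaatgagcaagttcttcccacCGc
Lhx8, chr3:153993616-153993774, minus strand, 159 bases: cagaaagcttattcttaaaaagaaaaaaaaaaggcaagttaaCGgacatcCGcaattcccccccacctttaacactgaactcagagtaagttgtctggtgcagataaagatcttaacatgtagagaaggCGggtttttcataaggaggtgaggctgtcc

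In the full 250 bases upstream, Zic1 had 27 CG dinucleotides, En1 19, Tbx18 15, Meox2 12, Tcf21 5 and Lhx8 4. The median over 32851 mouse promoters of the same length was 6, and 8.56% of them had as many as Zic1, 19.7% as many as En1, 27.3% as many as Tbx18, 33.5% as many as Meox2, 55.6% as many as Tcf21 and 62.2% as many as Lhx8. The letters CCAAT, on either strand, were in the windows of Zic1, En1 and Tbx18 and in 33.8% of all promoters, GGGCGG was in those of Zic1 and Meox2 and in 32.7% of all, and TATAAA was in that of Meox2 and in 12.4% of all. A count over 6 promoters does not tie these letters to the response to EGCG.

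**Figure D1:**
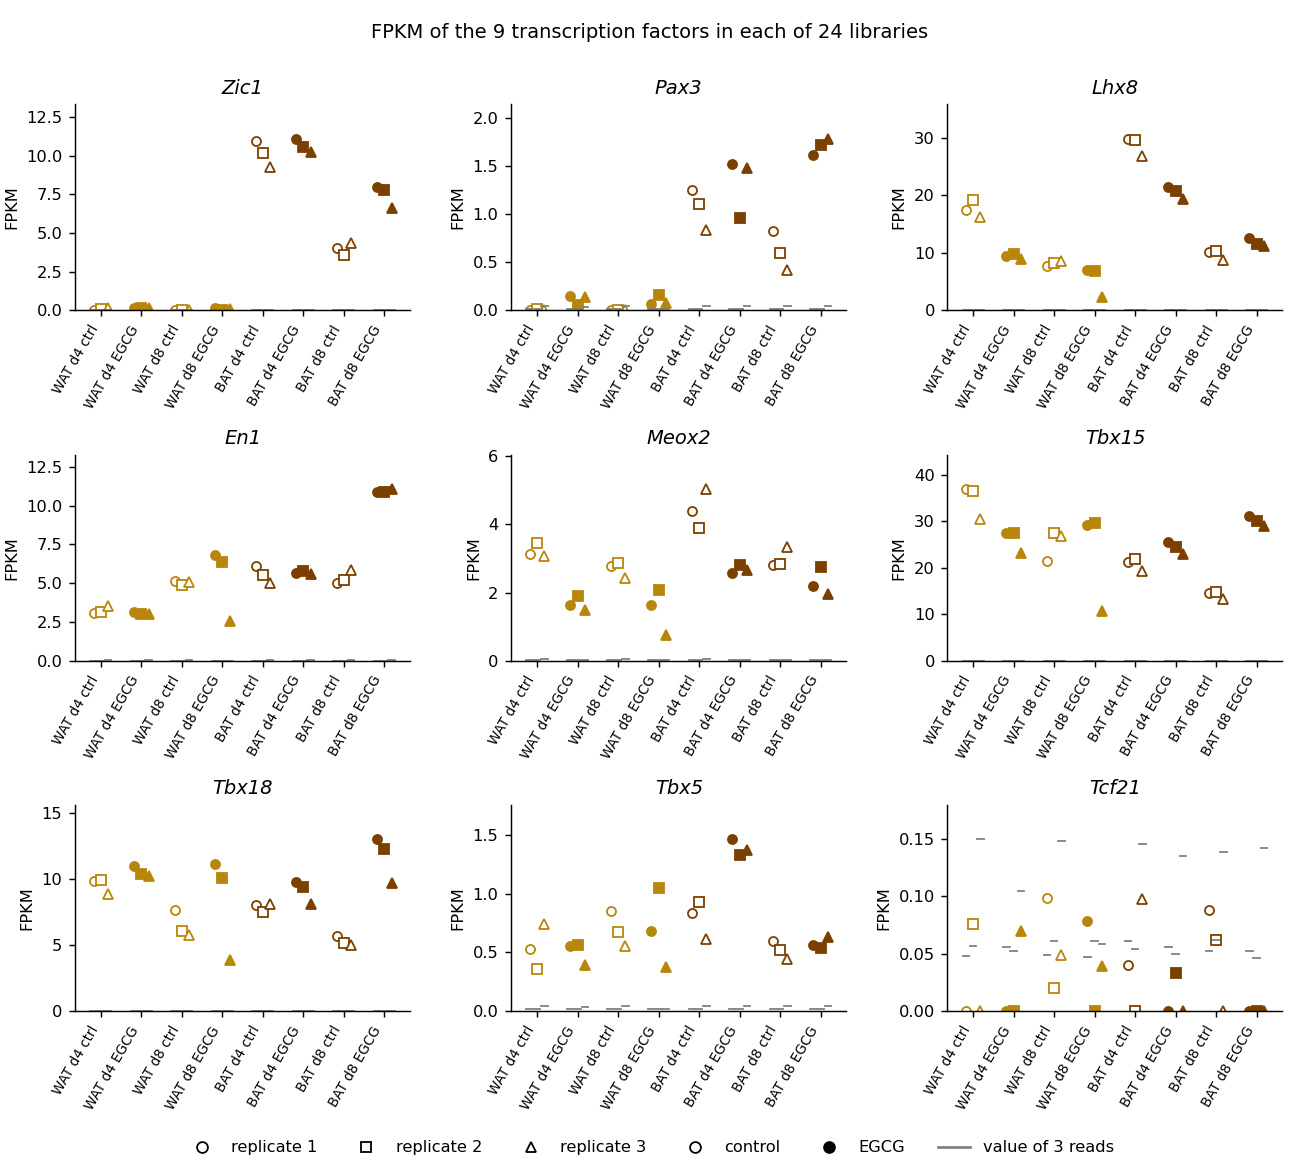
FPKM (y axis, linear from 0, a scale of its own in each panel) of each of the 9 factors in the 3 libraries of each of 8 groups (x axis, WAT in gold and BAT in brown, open for control and filled for EGCG, circle, square and triangle for replicates 1, 2 and 3), with a grey tick at the value that 3 reads would give. Zic1 stayed under 0.164 FPKM in all WAT libraries and lay above 3.56 FPKM in all BAT libraries, and the low triangle of WAT day 8 EGCG recurs in most panels.

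Zic1 and Pax3 were high in BAT cells and near the limit of detection in WAT cells in each of the 4 conditions, Lhx8 was also higher in BAT throughout, En1 was higher in BAT in 3 conditions, and Tbx15 and Tbx18 were higher in WAT controls. Averaged over the 4 conditions, 6 of the 8 members tested were called higher in BAT and 2 lower, where 47.6% of all genes tested were called higher and 20.7% lower. Since so large a share of all genes differed, the count is no result about these factors, and the size of each is given in turn. The calls of Tbx18 (-0.13) and Tbx5 (0.14) were lost when single libraries were left out, 6 of the 16 for Tbx18 (adjusted p = 0.0539 to 0.0642) and 12 of the 16 for Tbx5 (0.05 to 0.0981), and that of Tbx5 also after median-ratio scaling (0.11, adjusted p = 0.12).

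Zic1 was found at 10.9, 10.2 and 9.29 FPKM in the BAT day 4 controls and at 4.05, 3.57 and 4.38 in the BAT day 8 controls. In WAT it was 0.0243, 0.0665 and 0.163 FPKM in day 4 controls and 0.0502, 0.0445 and 0.0323 in day 8 controls. With EGCG, BAT cells had 11.1, 10.6 and 10.2 FPKM on day 4 and 8.00, 7.78 and 6.65 on day 8. The lowest BAT library thus lay far above the highest WAT library, and no pair of groups from the 2 depots overlapped. The WAT values with EGCG were 0.154, 0.138 and 0.145 FPKM on day 4 and 0.130, 0.0403 and 0.0728 on day 8. They rested on 3 to 38 reads a library in WAT, against 434 to 2928 in BAT, and 11 of the 12 WAT libraries lay above the floor of 3 reads, which was worth 0.0103 to 0.0327 FPKM there. Zic1 passed the filter on low values through BAT libraries alone, so that its depot difference had to be there. In day 4 controls the difference in log2(FPKM + 1) was 3.46 ± 0.0769 (SE, limma, adjusted p = 5.05e-10). Reads of replicates 1 and 2, 5030 in BAT and 23 in WAT, gave a depth-scaled ratio of 242 with a 95% interval of 161 to 382 for counting error alone. In day 8 controls the same ratio was 80.4 (53.8 to 126).

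Pax3 was lower in level than Zic1 and had the same depot order. It was 1.25, 1.11 and 0.832 FPKM in BAT day 4 controls and 0.829, 0.597 and 0.425 in BAT day 8 controls. In the WAT controls it was 0, 0.0121 and 0 FPKM on day 4 and 0.00521, 0.00645 and 0 on day 8, which were 0 to 2 reads a library. All 6 WAT control libraries were therefore under the floor of 3 reads, and Pax3 was not detectable there at this depth. WAT libraries with EGCG had 11 to 25 reads, which gave 0.147, 0.0611 and 0.143 FPKM on day 4 and 0.0647, 0.156 and 0.0808 on day 8. These 6 libraries lay above their floor and above all 6 WAT controls. Like Zic1, Pax3 passed the filter through BAT libraries alone. In day 4 controls the depot difference was 1.11 ± 0.126 (adjusted p = 2.49e-05), and 387 against 2 reads gave a depth-scaled ratio of 214 with a counting interval of 58.8 to 1773.

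Lhx8 was expressed in both depots and was higher in BAT. WAT day 4 controls had 17.4, 19.3 and 16.3 FPKM and BAT day 4 controls 29.9, 29.7 and 26.9. On day 8 the controls had 7.74, 8.27 and 8.53 FPKM in WAT and 10.2, 10.3 and 8.77 in BAT, where the lowest BAT library was just above the highest WAT library. With EGCG, WAT cells had 9.49, 9.82 and 8.96 FPKM on day 4 and 6.98, 6.83 and 2.37 on day 8. The BAT libraries with EGCG had 21.4, 20.8 and 19.4 FPKM on day 4 and 12.6, 11.6 and 11.2 on day 8. In each of the 4 conditions all 3 BAT libraries were above all 3 WAT libraries. WAT day 8 EGCG replicate 3, low for most genes as deposited, was 6.34 FPKM when rescaled by the median ratio of its group, still below BAT. The difference was 0.67 ± 0.0563 (adjusted p = 2.94e-06) in day 4 controls, 0.32 ± 0.0563 (adjusted p = 0.000489) in day 8 controls, 1.05 ± 0.0563 (adjusted p = 1.01e-07) with EGCG on day 4 and 0.73 ± 0.0563 (adjusted p = 2.78e-06) with EGCG on day 8.

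En1 differed between the depots on day 4 and not measurably in the day 8 controls. It was 3.11, 3.13 and 3.56 FPKM in WAT and 6.13, 5.50 and 5.03 in BAT day 4 controls. With EGCG it was 3.12, 2.99 and 3.00 FPKM in WAT and 5.68, 5.76 and 5.57 in BAT on day 4. All BAT libraries of day 4 were above all WAT libraries of that day. On day 8 the controls overlapped, with 5.12, 4.87 and 5.08 FPKM in WAT and 5.03, 5.20 and 5.83 in BAT. The day 8 libraries with EGCG had 6.79, 6.35 and 2.56 FPKM in WAT and 10.9, 10.9 and 11.1 in BAT, with no overlap. The low WAT replicate 3 was 6.85 FPKM when rescaled by the median ratio of its group, still below BAT. The depot difference of En1 was 0.73 ± 0.0588 in both treatments on day 4 (adjusted p = 2.33e-06 in controls), 0.029 ± 0.0588 in day 8 controls (adjusted p = 0.71) and 0.65 ± 0.0588 with EGCG on day 8 (adjusted p = 8.81e-06).

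Meox2 was modestly higher in BAT on day 4. Day 4 controls had 3.14, 3.46 and 3.08 FPKM in WAT and 4.38, 3.89 and 5.03 in BAT, and EGCG libraries of that day had 1.65, 1.91 and 1.50 in WAT and 2.56, 2.81 and 2.65 in BAT. No library of one depot overlapped those of the other at the same treatment on day 4. The difference was 0.41 ± 0.101 with EGCG (adjusted p = 0.00561) and 0.26 ± 0.101 in controls (adjusted p = 0.0486), and in controls the call was lost at 0.13 with median-ratio scaling (adjusted p = 0.34) and at 0.073 with quantile normalization (adjusted p = 0.58), and also without any 1 of the 4 libraries of replicates 1 and 2 (adjusted p = 0.0531 to 0.247). On day 8 Meox2 had 2.79, 2.88 and 2.43 FPKM in WAT and 2.81, 2.84 and 3.35 in BAT controls, which overlapped (difference -0.0025 ± 0.101, adjusted p = 0.987). The EGCG libraries of day 8 had 1.64, 2.06 and 0.744 FPKM in WAT and 2.19, 2.76 and 1.96 in BAT, a difference of 0.28 ± 0.101 (adjusted p = 0.0436) that was no longer called with median-ratio scaling (0.25, adjusted p = 0.077), without WAT day 8 EGCG replicate 1 (0.18, adjusted p = 0.28) or without BAT day 8 EGCG replicate 2 (0.17, adjusted p = 0.32).

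Tbx15 had the opposite depot order in controls. The WAT day 4 controls had 36.9, 36.5 and 30.4 FPKM and the BAT day 4 controls 21.3, 22.0 and 19.4. On day 8 the controls had 21.5, 27.5 and 26.9 FPKM in WAT and 14.5, 14.9 and 13.3 in BAT. All WAT controls of a day were above all BAT controls of that day. The difference was -0.74 ± 0.0801 on day 4 (adjusted p = 1.93e-05) and -0.69 ± 0.0801 on day 8 (adjusted p = 2.20e-05). With EGCG the depots came together, with 27.5, 27.5 and 23.2 FPKM in WAT and 25.6, 24.5 and 23.0 in BAT on day 4, and 29.3, 29.6 and 10.8 in WAT and 31.0, 30.1 and 28.9 in BAT on day 8. Neither difference with EGCG was called (-0.13 ± 0.0801, adjusted p = 0.21, and 0.052 ± 0.0801, adjusted p = 0.652), and the groups overlapped on both days.

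Tbx18 was higher in WAT controls by a smaller margin. It had 9.85, 9.96 and 8.84 FPKM in WAT and 8.02, 7.49 and 8.10 in BAT on day 4, and 7.69, 6.04 and 5.80 in WAT and 5.72, 5.17 and 5.04 in BAT on day 8. The control libraries of the 2 depots did not overlap on either day. The difference was -0.32 ± 0.0892 on day 4 (adjusted p = 0.0103) and -0.28 ± 0.0892 on day 8 (adjusted p = 0.0196). The call of day 4 was lost without BAT day 4 control replicate 2 (-0.27, adjusted p = 0.069), and that of day 8 without WAT day 8 control replicate 1 (-0.13, adjusted p = 0.2) or BAT day 8 control replicate 2 (-0.22, adjusted p = 0.13). With EGCG, Tbx18 had 11.0, 10.4 and 10.3 FPKM in WAT and 9.80, 9.44 and 8.15 in BAT on day 4. On day 8 the EGCG libraries had 11.1, 10.1 and 3.91 FPKM in WAT and 13.0, 12.3 and 9.71 in BAT. Neither of these differences was called (-0.14 ± 0.0892, adjusted p = 0.228, and 0.23 ± 0.0892, adjusted p = 0.0584).

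Tbx5 was a low-level gene in both depots, at 0.355 to 1.05 FPKM in WAT and 0.445 to 1.46 in BAT, on 31 to 258 reads a library, and reached 1 FPKM in 3 of the 16 libraries of the test, 2 of them BAT day 4 EGCG, without which it would not have been tested. With EGCG on day 4 it was 0.558, 0.566 and 0.390 FPKM in WAT and 1.46, 1.33 and 1.37 in BAT. These 3 BAT libraries were the highest of all 24 for Tbx5, and the difference was 0.62 ± 0.112 (adjusted p = 0.000817). In day 4 controls it was 0.529, 0.355 and 0.743 FPKM in WAT and 0.839, 0.931 and 0.619 in BAT. The difference of 0.39 ± 0.112 was called (adjusted p = 0.0117) although replicate 3 went the other way and the groups overlapped, and it was lost without WAT day 4 control replicate 2 (0.30, adjusted p = 0.094) or BAT day 4 control replicate 2 (0.35, adjusted p = 0.065). On day 8 neither depot difference of Tbx5 was called.

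Tcf21 was at the floor in both depots. It had 0 to 6 reads a library, 21 in all over 12 WAT libraries and 14 over 12 BAT libraries. A floor of 3 reads was worth 0.0464 to 0.15 FPKM, and 3 of 12 WAT libraries and 1 of 12 BAT libraries lay above theirs, none higher than 0.0987 FPKM. All 3 BAT day 8 EGCG libraries had 0 reads, which allows up to 0.0464, 0.0524 and 0.142 FPKM. Tcf21 was thus not detected as expressed in these cultures, and no order of the depots can be read from it.

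**Figure D2:**
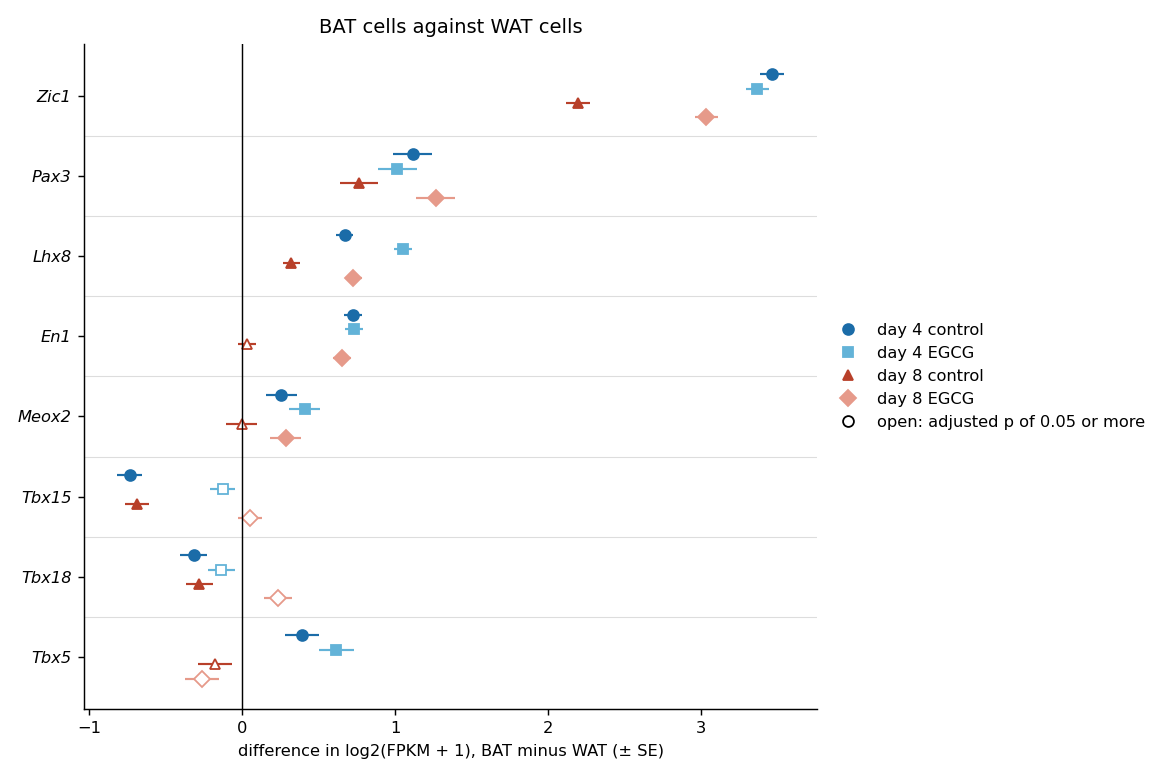
Difference in log2(FPKM + 1) between BAT and WAT cells (x axis, BAT minus WAT, bars 1 SE, replicates 1 and 2 of each group) for the 8 tested factors in 4 conditions, with open symbols where the adjusted p was 0.05 or more. Zic1 lay highest, at up to 3.46, and Pax3 between 0.76 and 1.26, while Tbx15 moved from -0.74 in day 4 controls to 0.052 with EGCG on day 8.

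By condition, 6 members were called higher and 2 lower in BAT in day 4 controls (background 41.4% higher and 14.4% lower), 3 higher and 2 lower in day 8 controls (31.6% and 22.0%), 6 higher and 0 lower with EGCG on day 4 (32.9% and 15.8%), and 5 higher and 0 lower with EGCG on day 8 (24.4% and 14.0%). Zic1 and Pax3 are counted as higher in each condition. Both passed the filter on low values through BAT libraries alone, and Tbx5 needed its BAT day 4 EGCG libraries to pass. The counts and medians here therefore lean on the filter and are a description. At an unadjusted p under 0.05 the counts of lower members with EGCG were 0 on day 4 and 1 on day 8 (limma), and voom on the recovered reads called 0 on both days. Without BAT day 4 control replicate 2, 5 of the 8 were called in day 4 controls. The shares of all genes under these alternatives are not given here, so these counts too are a description. The median difference over the 8 was 0.53, 0.013, 0.67 and 0.47 in that order, against 0.15, 0.05, 0.09 and 0.05 over all genes tested. In day 4 controls the median of all genes was 0.02 after median-ratio scaling, and the members' differences were then 3.41 for Zic1, 1.08 for Pax3, 0.51 for Lhx8, 0.59 for En1, -0.90 for Tbx15 and -0.47 for Tbx18.

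An exact two-sided permutation test over all 24 libraries, with depots exchanged within each condition and table, was run on each of the 9 members, with p-values left unadjusted. Zic1 (2.98), Pax3 (1.02) and Lhx8 (0.76) reached 0.0001, the smallest p that the 20736 exchanges can give, and En1 (0.61) had an exact p = 0.000193 and Meox2 (0.34) an exact p = 0.000386. Tbx15 (-0.27, exact permutation p = 0.124), Tbx18 (-0.038, 0.822), Tbx5 (0.16, 0.127) and Tcf21 (-0.013, 0.574) missed 0.05. Tbx15 depended on WAT day 8 EGCG replicate 3: without it the difference was -0.38 with an exact permutation p = 0.00405. With median-ratio scaling within each table Tbx15 (-0.46, exact permutation p = 0.000868) and Tbx18 (-0.21, exact permutation p = 0.00511) both passed.

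EGCG lowered Lhx8 and Meox2 on day 4 in both depots, and raised En1, Tbx18, Tbx15, Zic1 and Pax3 in BAT cells on day 8. On day 4 in WAT cells, 0 members were called higher and 3 lower (background 34.4% higher and 19.3% lower), and in BAT cells 2 were called higher and 2 lower (27.9% and 20.6%). On day 8 in WAT, 3 were higher and 2 lower (44.7% and 18.9%), and in BAT 6 were higher and 0 lower (46.5% and 26.1%). The counts at an unadjusted p under 0.05 were 0 higher in WAT on day 4 and 0 lower in BAT on day 8 as well (limma), while voom on the recovered reads called 2 higher in WAT on day 4, Zic1 and Pax3, and 0 lower in BAT on day 8. Without WAT day 8 EGCG replicate 2, 3 members were called in WAT on day 8, and without BAT day 4 control replicate 2 or either EGCG replicate, 2 were called in BAT on day 4. For these alternatives the shares of all genes are not given here, so their counts are a description. The median of all genes moved by 0.17 with EGCG on day 8 in both depots and by 0.02 or less after median-ratio scaling, so the values after that scaling are given below beside those of day 8.

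Lhx8, the LIM homeodomain factor, fell by 0.86 ± 0.0563 with EGCG in WAT on day 4 (adjusted p = 2.39e-07) and by 0.48 ± 0.0563 in BAT (adjusted p = 2.57e-05). In FPKM the means went from 18.4 ± 1.28 to 9.66 ± 0.233 in WAT and from 29.8 ± 0.102 to 21.1 ± 0.433 in BAT. All 3 EGCG libraries were below all 3 controls in both depots. On day 8 Lhx8 fell by 0.19 ± 0.0563 in WAT (adjusted p = 0.0117, -0.37 after median-ratio scaling, not called without control replicate 2, -0.15, adjusted p = 0.081, or EGCG replicate 2, -0.17, adjusted p = 0.062) and was 0.22 ± 0.0563 higher in BAT (adjusted p = 0.00432), where the call was lost after median-ratio scaling (0.039, adjusted p = 0.57), quantile normalization (0.087, adjusted p = 0.22) and without EGCG replicate 1 (0.16, adjusted p = 0.055).

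Meox2 of the somites fell by 0.63 ± 0.101 in WAT on day 4 (adjusted p = 0.000265), by 0.48 ± 0.101 in BAT on day 4 (adjusted p = 0.00205) and by 0.43 ± 0.101 in WAT on day 8 (adjusted p = 0.00274). In BAT on day 8 the difference was -0.14 ± 0.101 and was not called (adjusted p = 0.222). In all 4 comparisons the 3 EGCG libraries lay below the 3 controls. In WAT on day 8, EGCG replicate 3 was low for most genes as deposited, and rescaled by the median ratio of its group it was 1.99 FPKM, still below the controls.

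En1 rose in BAT on day 8 from 5.11 ± 0.12 to 10.9 ± 0.0321 FPKM (0.96 ± 0.0588, adjusted p = 3.06e-08, 0.79 after median-ratio scaling). It rose less in WAT on day 8, from 4.99 ± 0.176 to 6.57 ± 0.315 FPKM (0.34 ± 0.0588, adjusted p = 0.000337, 0.17 after median-ratio scaling). Replicate 3 of that WAT group, the library that stood apart, went the other way as deposited. On day 4 En1 differed by -0.023 ± 0.0588 in WAT and -0.019 ± 0.0588 in BAT (adjusted p = 0.766 and 0.818).

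The T-box factors Tbx15 and Tbx18 had their largest changes in BAT on day 8. Tbx15 rose there from 14.7 ± 0.238 to 30.6 ± 0.668 FPKM (1.01 ± 0.0801, adjusted p = 2.91e-07, 0.82 after median-ratio scaling) and Tbx18 from 5.45 ± 0.387 to 12.6 ± 0.521 (1.08 ± 0.0892, adjusted p = 4.04e-07, 0.91 after scaling). All EGCG libraries exceeded all controls for both. In WAT on day 8 Tbx18 rose from 6.86 ± 1.16 to 10.6 ± 0.761 FPKM (0.57 ± 0.0892, adjusted p = 0.000154, 0.39 after scaling). Tbx15 in the same cells was 0.27 ± 0.0801 higher (adjusted p = 0.0119), a call that was lost after median-ratio scaling (0.072, adjusted p = 0.48), quantile normalization (0.071, adjusted p = 0.47) and without control replicate 1 (0.097, adjusted p = 0.077) or EGCG replicate 2 (0.26, adjusted p = 0.052). For both genes WAT day 8 EGCG replicate 3, the library that stood apart, went the other way as deposited. It had 3.91 FPKM of Tbx18 against 5.80 in control replicate 3, and 10.8 of Tbx15 against 26.9. On day 4 in WAT Tbx15 fell by 0.40 ± 0.0801 (adjusted p = 0.00124), with all EGCG libraries below the controls. In BAT on day 4 Tbx18 rose by 0.28 ± 0.0892 (adjusted p = 0.0222), a call that was lost with quantile normalization (0.22, adjusted p = 0.055) and without BAT day 4 control replicate 2 (0.23, adjusted p = 0.12), EGCG replicate 1 (0.25, adjusted p = 0.1) or EGCG replicate 2 (0.30, adjusted p = 0.056). Tbx15 in those cells differed by 0.20 ± 0.0801 (adjusted p = 0.0543).

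Tbx5 was called higher with EGCG in BAT on day 4 alone among the 4 comparisons, from 0.885 ± 0.0649 to 1.39 ± 0.0954 FPKM (0.35 ± 0.112, adjusted p = 0.0236), with all 3 EGCG libraries above all 3 controls. Without these EGCG libraries Tbx5 would not have been tested, so this rise is given as a description. The call was lost with quantile normalization (0.28, adjusted p = 0.07) and without any 1 of the 4 libraries compared (adjusted p = 0.0531 to 0.119). In the other comparisons the differences of Tbx5 were 0.12 ± 0.112 in WAT on day 4, 0.076 ± 0.112 in WAT on day 8 and -0.009 ± 0.112 in BAT on day 8.

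Zic1 and Pax3 were also raised in BAT on day 8. Zic1 went from 3.81 ± 0.341 to 7.89 ± 0.154 FPKM (0.89 ± 0.0769, adjusted p = 6.23e-07, 0.73 after median-ratio scaling) and Pax3 from 0.713 ± 0.164 to 1.67 ± 0.0735 (0.64 ± 0.126, adjusted p = 0.000627, 0.54 after scaling). Their EGCG libraries lay above the controls in all 3 replicates. On day 4 in BAT the differences were 0.036 ± 0.0769 and 0.033 ± 0.126 (adjusted p = 0.734 and 0.855). In WAT, Pax3 went from 2 to 36 reads over replicates 1 and 2 on day 4 and from 2 to 37 on day 8, depth-scaled ratios of 18.7 (counting interval 4.81 to 160) and 18.1 (4.67 to 155). On the log2(FPKM + 1) scale these were differences of 0.13 ± 0.126 and 0.14 ± 0.126 (adjusted p = 0.398 and 0.35), and with a pseudocount of 0.1 FPKM in place of 1 both were called (adjusted p = 0.0455 and 0.032). Zic1 in WAT on day 4 had 23 reads in controls and 74 with EGCG, a ratio of 3.34 (2.07 to 5.59), and was called with the smaller pseudocount as well (adjusted p = 0.012), although replicate 3 did not show it.

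Sox10, the defining factor of neural crest and Schwann cells, moved in the same direction as Pax3, which neural crest cells also express. It rose with EGCG from 4.40 ± 1.03 to 11.1 ± 0.519 FPKM in WAT day 4, from 7.83 ± 0.408 to 17.6 ± 0.141 in WAT day 8, from 6.77 ± 0.249 to 17.6 ± 2.10 in BAT day 4 and from 11.3 ± 0.211 to 26.7 ± 1.43 in BAT day 8. Pax3 rose in BAT on day 8 and not measurably on day 4, while Sox10 was higher on both days. The part of these cells in the level of Pax3 was not tested. Skeletal muscle transcripts were present in all groups, the 8 markers summing to 12.4 to 86.6 FPKM over the libraries of replicates 1 and 2. Of the 4 muscle markers tested, 4 were called higher with EGCG in WAT on day 4 and 2 lower in BAT on day 8, where Pax3 rose. The satellite cell factor Pax7 had group means of no more than 0.014 FPKM and Myf5 of no more than 0.149. The part of muscle cells in the level of Pax3 was not tested.

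Adipocyte genes moved the other way. All 8 mature adipocyte markers were called lower with EGCG in each of the 4 comparisons, and their summed level in BAT on day 8 went from 10900 to 10970 FPKM in controls to 465.9 to 474.2 with EGCG. The part of adipocyte content in the rise of Zic1, En1, Tbx15 and Tbx18 was not tested. Of the 5 pericyte markers in the same cells, 1 was called higher and 2 lower. Pdgfrb, a receptor that fibroblasts express as well, rose from 62.0 ± 0.344 to 218.9 ± 3.56 FPKM, so that the sum of the list, 77.1 to 77.3 FPKM in controls and 228 to 235 with EGCG, rested on this gene, while Rgs5 fell from 3.03 ± 0.745 to 1.60 ± 0.24.

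**Figure D3:**
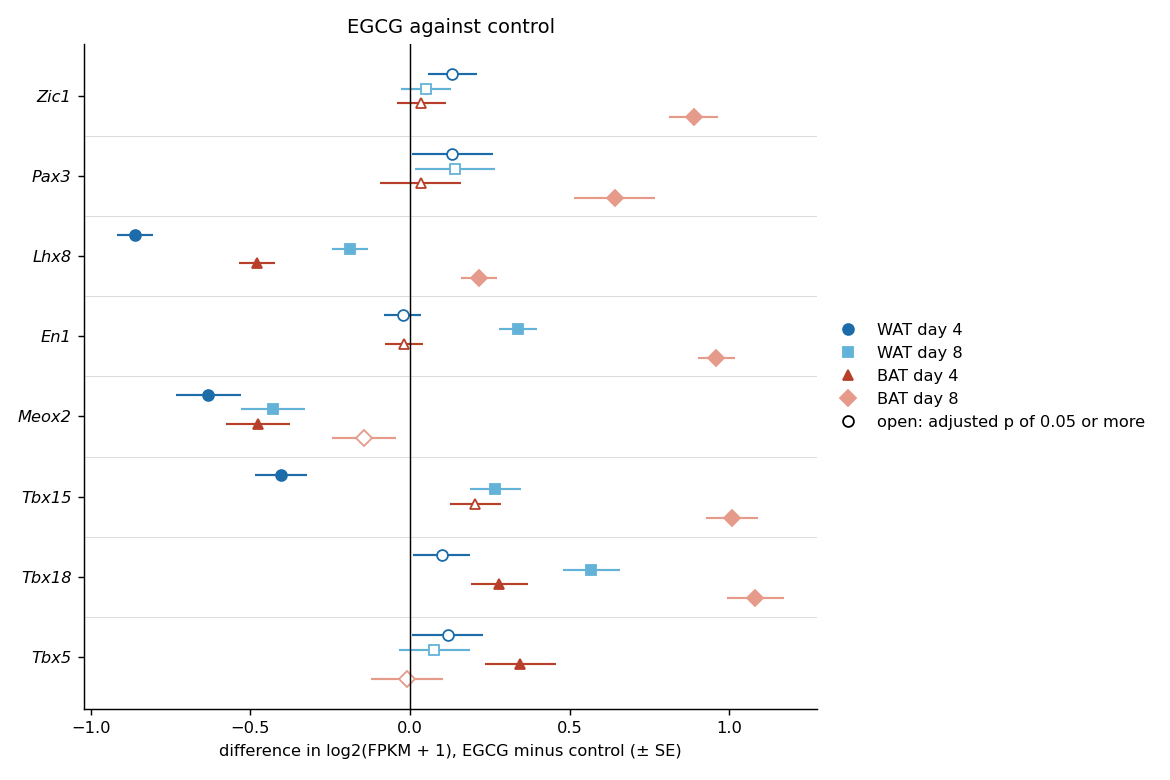
Difference in log2(FPKM + 1) between EGCG and control (x axis, EGCG minus control, bars 1 SE, replicates 1 and 2 of each group) for the 8 tested factors in WAT and BAT on day 4 and day 8, with open symbols where the adjusted p was 0.05 or more. In BAT on day 8 En1, Tbx15 and Tbx18 lay between 0.96 and 1.08 and Zic1 at 0.89, while Lhx8 lay lowest in WAT on day 4 at -0.86.

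Whether the effect of EGCG differed between the depots was tested directly, as the effect in BAT minus that in WAT. On day 4, 2 members were called with a higher effect in BAT and 0 with a lower one (background 12.0% higher and 16.1% lower): Lhx8 by 0.38 ± 0.0797 (adjusted p = 0.00464) and Tbx15 by 0.61 ± 0.113 (adjusted p = 0.00241). On day 8, 6 were called higher and 0 lower (19.4% and 19.7%). At an unadjusted p under 0.05 limma had 0 lower on both days, and voom called 2 lower on day 4, Zic1 (-1.80, adjusted p = 0.0397) and Pax3 (-4.00, adjusted p = 0.0261), and 0 on day 8. The shares of all genes at that threshold and under voom are not given here, so these counts are a description. The differences of day 8 were 0.84 ± 0.109 for Zic1 (adjusted p = 0.000117), 0.74 ± 0.113 for Tbx15 (adjusted p = 0.000372), 0.62 ± 0.0832 for En1 (adjusted p = 0.000146), 0.51 ± 0.126 for Tbx18 (adjusted p = 0.0073), 0.40 ± 0.0797 for Lhx8 (adjusted p = 0.00197) and 0.50 ± 0.178 for Pax3 (adjusted p = 0.044). For Zic1 and Pax3, near 0 in WAT, this difference rested on the scale: with voom on the recovered reads, which is on a log2 scale of depth-scaled reads, it was 0.37 (adjusted p = 0.71) and -2.30 (adjusted p = 0.14). For the same pair a pseudocount of 0.1 gave 0.75 (adjusted p = 0.085) and 0.18 (adjusted p = 0.81). The call of Pax3 was also lost without any of 7 of the 8 libraries compared (adjusted p = 0.0594 to 0.142) and after median-ratio scaling (0.41, adjusted p = 0.091).

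Between day 4 and day 8 all 8 tested members were called lower in BAT controls, against 40.4% of all genes tested, and 3 of them in WAT controls, against 33.2%. The count in BAT controls was 5 of 8 after median-ratio scaling, and also without BAT day 4 control replicate 1 or BAT day 8 control replicate 2. Over all 14095 genes median-ratio scaling called 4400 lower (from 5701), and the shares without those libraries are not given here. Lhx8 fell by 1.10 ± 0.0563 in WAT controls (adjusted p = 2.42e-08) and by 1.45 ± 0.0563 in BAT controls (adjusted p = 1.44e-09), and by less with EGCG, 0.43 and 0.76. Zic1 fell by 1.26 ± 0.0769 in BAT controls (adjusted p = 4.11e-08) and by 0.41 ± 0.0769 in BAT with EGCG (adjusted p = 0.000666). All day 8 libraries of both genes in BAT were below all day 4 libraries of the same treatment. In controls Tbx15 fell by 0.58 ± 0.0801 in WAT (adjusted p = 6.40e-05) and by 0.53 ± 0.0801 in BAT (adjusted p = 9.32e-05), and Tbx18 by 0.48 ± 0.0892 (adjusted p = 0.000605) and 0.44 ± 0.0892 (adjusted p = 0.000866). With EGCG, Tbx15 and Tbx18 were 0.27 ± 0.0801 and 0.36 ± 0.0892 higher on day 8 than on day 4 in BAT (adjusted p = 0.0115 and 0.00448) and differed by 0.094 ± 0.0801 and -0.011 ± 0.0892 in WAT (adjusted p = 0.337 and 0.927). The rise of Tbx15 in BAT was not called without EGCG replicate 2 of day 4 (0.24, adjusted p = 0.069) or EGCG replicate 1 of day 8 (0.25, adjusted p = 0.064).

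En1 rose with time in WAT cells, by 0.54 ± 0.0588 in controls (adjusted p = 8.94e-06) and 0.90 ± 0.0588 with EGCG (adjusted p = 1.63e-07), and in BAT with EGCG (0.82 ± 0.0588, adjusted p = 3.13e-07). In replicate 3 of WAT with EGCG, En1 went the other way as deposited, at 2.56 FPKM on day 8 against 3.00 on day 4. In BAT controls it was 0.16 ± 0.0588 lower on day 8 (adjusted p = 0.0325), and that call was lost after median-ratio scaling (-0.028, adjusted p = 0.69), quantile normalization (-0.081, adjusted p = 0.22) and without any of 3 of the 4 libraries (adjusted p = 0.059 to 0.264). Meox2 fell by 0.42 ± 0.101 in BAT controls (adjusted p = 0.00268) and was not called in the other 3 conditions. Pax3 fell by 0.35 ± 0.126 in BAT controls (adjusted p = 0.0269, lost at -0.28 after median-ratio scaling with adjusted p = 0.067, and without any of 3 of the 4 libraries with adjusted p = 0.0513 to 0.172). Tbx5, tested only because of its high BAT day 4 EGCG libraries, fell in BAT with EGCG by 0.63 ± 0.112 (adjusted p = 0.000487), given as a description. In controls it was 0.29 ± 0.112 higher on day 8 in WAT (adjusted p = 0.04) and 0.27 ± 0.112 lower in BAT (adjusted p = 0.0472), and both calls were lost without single libraries (adjusted p = 0.188 to 0.228 for 2 of the 4 compared in WAT and 0.0783 to 0.17 for each of the 4 in BAT).

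Counted over the 8 members, day 8 was called higher for 2 and lower for 3 in WAT controls (background 27.7% higher and 33.2% lower), higher for 1 and lower for 1 in WAT with EGCG (31.8% and 27.7%), higher for 0 and lower for 8 in BAT controls (28.7% and 40.4%) and higher for 3 and lower for 3 in BAT with EGCG (29.7% and 28.2%). The median of all genes in BAT controls was -0.10, and 0.02 after median-ratio scaling, under which 5 of the 8 were still called. At an unadjusted p under 0.05 limma had 0 members higher in BAT controls, and voom called 0. These counts are a description, as the shares of all genes at that threshold and under voom are not given here. The groups at the 4 time and treatment points share libraries with the EGCG comparisons above, so the 2 sets of differences are not independent.

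**Figure D4:**
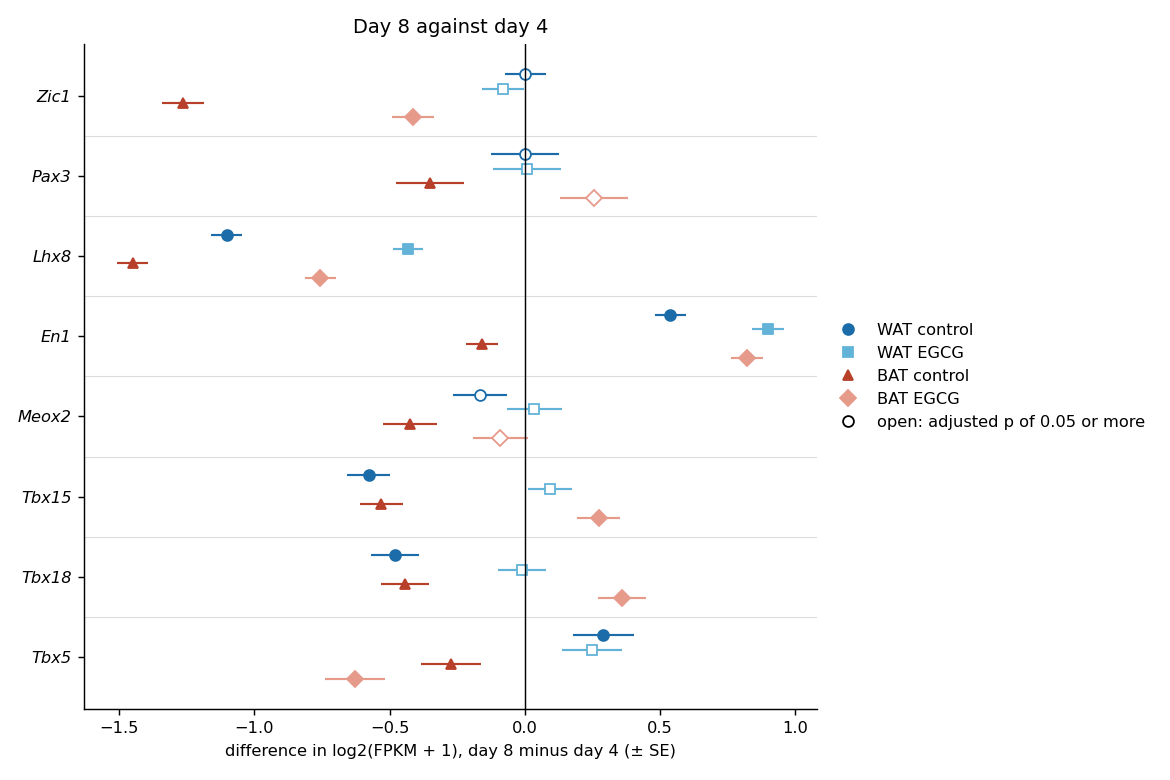
Difference in log2(FPKM + 1) between day 8 and day 4 (x axis, day 8 minus day 4, bars 1 SE, replicates 1 and 2 of each group) for the 8 tested factors in WAT and BAT cells with and without EGCG, with open symbols where the adjusted p was 0.05 or more. Lhx8 lay below 0 in all 4 conditions, from -1.45 to -0.43, and En1 lay at 0.54 to 0.90 in 3 of them and at -0.16 in BAT controls.

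The levels can be ordered within each depot, since FPKM is per length. Among the BAT day 8 controls Tbx15 came first at 14.7 ± 0.238 FPKM, then Lhx8 at 10.3 ± 0.052, Tbx18 at 5.45 ± 0.387, En1 at 5.11 ± 0.12, Zic1 at 3.81 ± 0.341, Meox2 at 2.82 ± 0.0175, Pax3 at 0.713 ± 0.164 and Tbx5 at 0.56 ± 0.056. The libraries of Tbx18 and En1 overlapped, as did those of Pax3 and Tbx5. In WAT day 8 controls the order was Tbx15 at 24.5 ± 4.22, Lhx8 at 8.01 ± 0.378, Tbx18 at 6.86 ± 1.16, En1 at 4.99 ± 0.176, Meox2 at 2.83 ± 0.062, Tbx5 at 0.764 ± 0.124 and Zic1 at 0.0473 ± 0.00409. Zic1 thus stood above Meox2 in BAT and below Tbx5 in WAT.

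The members fell into few patterns over the 16 libraries of replicates 1 and 2, given as Pearson's r of log2(FPKM + 1) with no test, since these libraries share groups, depth and table. Zic1 and Pax3 were the closest pair (r = 0.964), followed by Tbx15 and Tbx18 (r = 0.781) and by Lhx8 and Meox2 (r = 0.736). Among the other genes tested, the one most like Zic1 was Six2 (r = 0.979), a homeobox gene of mesoderm and kidney, and the one most like Pax3 was Hoxa5 (r = 0.971). Most like Lhx8 was Hspe1 (r = 0.957), a mitochondrial chaperonin, most like En1 was Pls3 (r = 0.972), an actin-bundling protein, and most like Tbx18 was Fhl3 (r = 0.983), a LIM-only protein. Tbx15 was nearest to S1pr2 (r = 0.961), a sphingosine-1-phosphate receptor, Meox2 to Gm12824 (r = 0.945) and Tbx5 to Tlr13 (r = 0.822), an innate immune receptor.

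Other developmental transcription factors were read for the same depot difference, from a list of 46 relatives and partners of the members, of which 26 were tested. Averaged over conditions, 10 were called higher in BAT, 12 lower and 4 not called, a median of -0.060, where 47.6% of all genes were called higher and 20.7% lower. Six2 was higher in BAT by 1.60 ± 0.0536, at 0 to 0.0952 FPKM in WAT and 1.21 to 3.10 in BAT. Zic4, the neighbour of Zic1 on the other strand, was higher by 1.12 ± 0.0527, at 0 to 0.0441 FPKM in WAT and 0.807 to 1.83 in BAT. Both passed the filter on low values through BAT libraries alone, so their depot differences had to be there and are given as a description. The forkhead gene Foxc2 was higher by 1.29 ± 0.0532.

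Of those lower in BAT with a mean of at least 1 FPKM in WAT, Tbx1, a T-box factor of the pharyngeal region, came first (-1.24 ± 0.0663), at 0.96 to 1.97 FPKM in WAT and 0.0121 to 0.216 in BAT. Tbx1 passed the filter through WAT libraries alone, so this too is a description. Emx2, a homeobox gene of the urogenital ridge and limb girdle, came next (-1.21 ± 0.0537, adjusted p = 5.54e-09), with Tbx3 at -0.76 ± 0.046 and Shox2 at -0.58 ± 0.0472. The 7 genes named here kept their direction with median-ratio scaling and with quantile normalization. Tbx3 is also a gene of mammary epithelium, and the epithelial markers Epcam and Krt14 were found in the WAT libraries alone among the controls. Their part in the level of Tbx3 was not tested. On the log2(FPKM + 1) scale Zic1 had the largest depot difference of the 8 members and these 26 genes. It too passed the filter through BAT libraries alone, so this rank is a description. With EGCG the depth-scaled ratio of reads, BAT to WAT, was also larger for Zic1 than for Pax3. It was 74.4 against 11.98 on day 4 and 86.41 against 16.01 on day 8. In day 4 controls the ratio was 242 for Zic1 (counting interval 161 to 382) and 214 for Pax3 (58.8 to 1773). In day 8 controls it was 125 for Pax3 (34.35 to 1042) and 80.4 for Zic1 (53.8 to 126). In the controls of each day Pax3 had 2 reads in WAT and the intervals overlapped, so the ratios do not settle the order there.

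**Figure D5:**
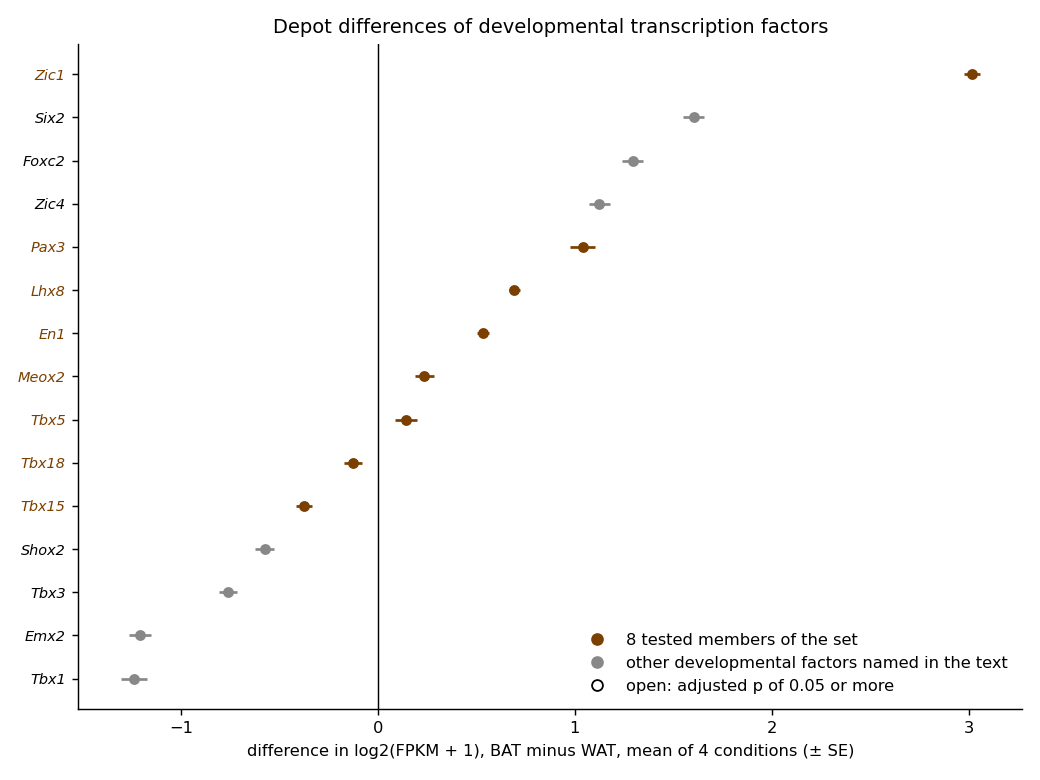
Difference in log2(FPKM + 1) between BAT and WAT averaged over the 4 conditions (x axis, BAT minus WAT, bars 1 SE, replicates 1 and 2) for the 8 tested members in brown and the 7 other developmental transcription factors named above in grey, with open symbols where the adjusted p was 0.05 or more. Zic1 lay at 3.02 and Six2 at 1.60, and both passed the filter through BAT libraries alone. Tbx1, which passed through WAT libraries alone, lay lowest at -1.24.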

How the data were processed

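RNA of 24 cultures of mouse WAT and BAT stromal vascular cells was sequenced. The submitters' processing notes name FastQC 0.11.9, HISAT2 2.2.0, HTSeq 0.11 and mm9, and the strand setting is not given in the sources used here. The authors deposited FPKM values in 2 tables, of 16 and 8 libraries, with gene lengths equal to the longest GENCODE vM1 transcript. Values above 0 were whole multiples of 1 read, within 0.01, for no less than 99.83% of genes in every library, so reads were recovered, and a floor of 3 reads was used. Floors and intervals describe counting error and nothing else.

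Genes with at least 1 FPKM in at least 2 of the 16 libraries of replicates 1 and 2 were tested. limma 3.58.1 (R 4.3.3, eBayes with a trend, 8 residual degrees of freedom) took log2(FPKM + 1) of those libraries, 1 mean for each group and 15 contrasts, with Benjamini-Hochberg adjustment over 14095 genes, and was tested on simulated data. Exact permutations used all 24 libraries, exchanged within condition and table. Alternatives were a pseudocount of 0.1, other filters, median-ratio and quantile scaling, the replicate number as a block, both tables together, voom and leaving out each replicate. Rescaling WAT day 8 EGCG replicate 3, and the other scalings for the related factors, were chosen after seeing the data.

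The members and lists were chosen with earlier results of these data known. All members were named, with the 4 related factors highest and the 4 lowest in BAT (called, 1 FPKM or more in the higher depot, same direction in all replicates) and the gene most correlated with each member. A few genes of these lists are not reported here. Marker genes were named where they stood beside a member.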

Additional observations from a re-analysis of the deposited data

Results flagged for a closer look

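Some effects of EGCG differed between the depots by a direct test of the difference, the effect in BAT cells minus that in WAT cells in limma. On day 4 the test called Lhx8 (0.38, adjusted p = 0.00464), which fell in both depots and by more in WAT, and Tbx15 (0.61, adjusted p = 0.00241), which fell in WAT and was not called in BAT. On day 8 it called Zic1 (0.84, adjusted p = 0.000117), Lhx8 (0.40, adjusted p = 0.00197), Tbx15 (0.74, adjusted p = 0.000372), Tbx18 (0.51, adjusted p = 0.0073), En1 (0.62, adjusted p = 0.000146) and Pax3 (0.50, adjusted p = 0.044). In WAT day 8 EGCG replicate 3 the median gene was at 0.373 times the mean of replicates 1 and 2, so replicate 3 adds no check of the day 8 values. The differences of Zic1 and Pax3 on day 8 were not called with a pseudocount of 0.1 or with voom, and their WAT levels lay near the floor.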

How the results depend on the processing

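Of 79 values of members called in limma, 47 kept their call and direction in every alternative run, and 41 values were not called, 21 of which changed sign in some alternative. Fitting both tables together, with WAT day 8 EGCG replicate 3 as deposited, lowered the number of members called to 5 (from 8) between depots in day 4 controls, 3 (from 5) in day 8 controls, 2 (from 5) for EGCG in WAT on day 8, 2 (from 4) for EGCG in BAT on day 4, 2 (from 5) and 5 (from 8) for day 8 against day 4 in WAT and BAT controls, and 0 (from 2) for the depot difference of the EGCG effect on day 4. Fewer of all 14095 genes were called in each of these comparisons as well. Between depots 1728 (from 5842) were higher and 828 (from 2025) lower in day 4 controls. In day 8 controls these counts were 1830 (from 4460) and 1022 (from 3095). For the depot difference of the EGCG effect on day 4 they were 358 (from 1689) and 269 (from 2270). In that fit the EGCG effects of Tbx15 (-0.24) and En1 (-0.033) in WAT on day 8 turned sign, as did Tbx15 (-0.018) there and En1 (0.070) between days in BAT controls when median-ratio scaling was added; without that library 73 of the 79 kept their call. A pseudocount of 0.1 and voom on recovered reads each called 5 (from 3) for EGCG in WAT on day 4, quantile normalization 2 (from 4) for EGCG in BAT on day 4, median-ratio scaling 5 (from 8) between days in BAT controls and voom 4 (from 2) for the depot difference of the EGCG effect on day 4. Over all genes the pseudocount called 4852 higher and 2703 lower for EGCG in WAT on day 4 (from 4853 and 2714). Quantile normalization called 3435 and 3292 for EGCG in BAT on day 4 (from 3938 and 2900). Median-ratio scaling called 5025 and 4400 between days in BAT controls (from 4050 and 5701). Voom also turned the depot difference of the EGCG effect on Pax3 on day 8 (-2.30, adjusted p = 0.14). Leaving out 1 replicate at a time gave 5 to 7 members called between depots in day 4 controls, 3 to 5 for EGCG in WAT on day 8, 2 to 3 for EGCG in BAT on day 4 and 5 to 6 between days in BAT controls. The shares of all genes under voom and with 1 replicate left out are not given here, so those counts are a description. Beyond what the construction of an alternative shows, the cause was not tested.

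Correlations of same-numbered deviations between the 28 pairs of groups ran from -0.079 to 0.081 over all genes tested. The labels do not say what same-numbered replicates shared, and such correlations cannot show that they had no common isolation or animal. With the replicate block 7 members (from 8) were called between depots over the 4 conditions, 7 (from 8) between days in BAT controls and 4 (from 5) in WAT controls. Over all genes the block called 6699 higher and 2902 lower between depots (from 6712 and 2920). Between days it called 4034 and 5659 in BAT controls (from 4050 and 5701) and 3878 and 4642 in WAT controls (from 3907 and 4684). Depth limits Tcf21, Pax3 and Zic1 in WAT cells, where values rest on 0 to 38 reads.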

Other observations

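Within the related factors, the Zic family and the paired box family gave values near 0 that the report's tests did not use. Zic2 was 0 to 0.0441 FPKM in WAT and 0.116 to 0.57 in BAT over replicates 1 and 2, and Zic5 was 0 to 0.0211 in WAT and 0.07 to 0.214 in BAT. Pax9 was 0.00448 to 0.0929 FPKM in WAT and 0.089 to 0.576 in BAT, and Pax1 went the other way, with 0.199 to 0.576 in WAT and 0 to 0.141 in BAT. Pitx1, a hindlimb homeobox gene, was 0.158 to 0.571 FPKM in WAT and 0.00908 to 0.0541 in BAT. Meox1, the relative of Meox2, was 0.132 to 0.957 FPKM in WAT and 0.592 to 1.26 in BAT, and En2, the relative of En1, had at most 14 reads a library. None of these passed the filter on low values, so their depot differences were not tested.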
